A study of Arabidopsis thaliana with 12 samples.

Results

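Genes of the mTERF family were followed in an expression array of wild-type Arabidopsis thaliana, ecotype C24. The members were the 8 loci AT5G55580 (MTERF9), AT4G09620, AT3G46950, AT1G79220, AT1G61990, AT1G62010, AT1G62150 and AT3G18870, each taken from the array feature that the platform's gene table pairs with that locus and no other gene. They made up 8 of the 692 features with exactly 1 gene and 8 of the 3439 features in all. The series compared plants under light specific for photosystem II that also received DCMU (PSII light with DCMU, 6 samples) with plants under light specific for photosystem I and no DCMU (PSI light, 6 samples). All samples were total RNA of wild-type plants. The labels give no tissue, age or length of treatment. Every DCMU sample was also under PSII light and every sample without DCMU under PSI light, so the light and the inhibitor cannot be told apart.

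mTERF proteins are built from repeated helical motifs that form a curved surface for binding DNA or RNA. The family is named after a human mitochondrial factor that ends transcription. Plants have many more members than animals, nearly all of them encoded in the nucleus and imported into chloroplasts or mitochondria, where characterised members act in transcription, intron splicing or ribosome assembly. DCMU is a herbicide that stops electron flow from photosystem II to plastoquinone, and light that favours photosystem I draws electrons out of the same pool, whose redox state is known to influence transcription of chloroplast genes.

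The deposited intensity of a sample had a median of 0.632 to 0.687 under PSII light with DCMU and 0.542 to 0.584 under PSI light, in arbitrary units of unstated scaling. Samples with the numbers 1 and 2, those with 3 and 4 and those with 5 and 6 resembled each other within a group like technical pairs, and the mean of each pair counts as 1 replicate in what follows (n = 3 in each group). The labels name no separate plants or cultures, so the spread behind the p-values may be technical, and the small number of arrays limits precision. Of 8 genes for proteins of green tissue, 4 were measured, with mean intensities of 1.21 to 19.6 under PSII light with DCMU and 0.923 to 17.1 under PSI light. Their log2 changes, PSII light with DCMU minus PSI light, were 0.13 (AT5G64040), 0.40 (AT1G67740), -0.34 (AT2G34420) and 0.19 (AT2G30570). Of these 4, 0 passed the test, where 48.5% of all features passed. Of 6 marker genes of root, pollen and flower, 0 were measured by a feature of their own. In bulk RNA, fewer cells of a type and less RNA per cell cannot be told apart.

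Under PSII light with DCMU, MTERF9 had 1.86 times and AT4G09620 1.88 times the intensity they had under PSI light, while AT3G46950 fell to 0.531 times and AT1G79220 to 0.80 times. These 4 members passed an adjusted p of 0.05 (limma, Benjamini-Hochberg over 3439 features), 2 higher and 2 lower, and 4 did not pass. Across the array 48.5% of all features passed that threshold, 26.4% higher and 22.0% lower, so the share of members called was near that of all features. The median log2 change was 0.34 over the 8 members and 0.04 over all features. All 8 members lay above the floor set under low values in each of the 12 samples, with intensities between 0.492 and 2.56, so none of their folds rests on the floor.

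**Figure D1:**
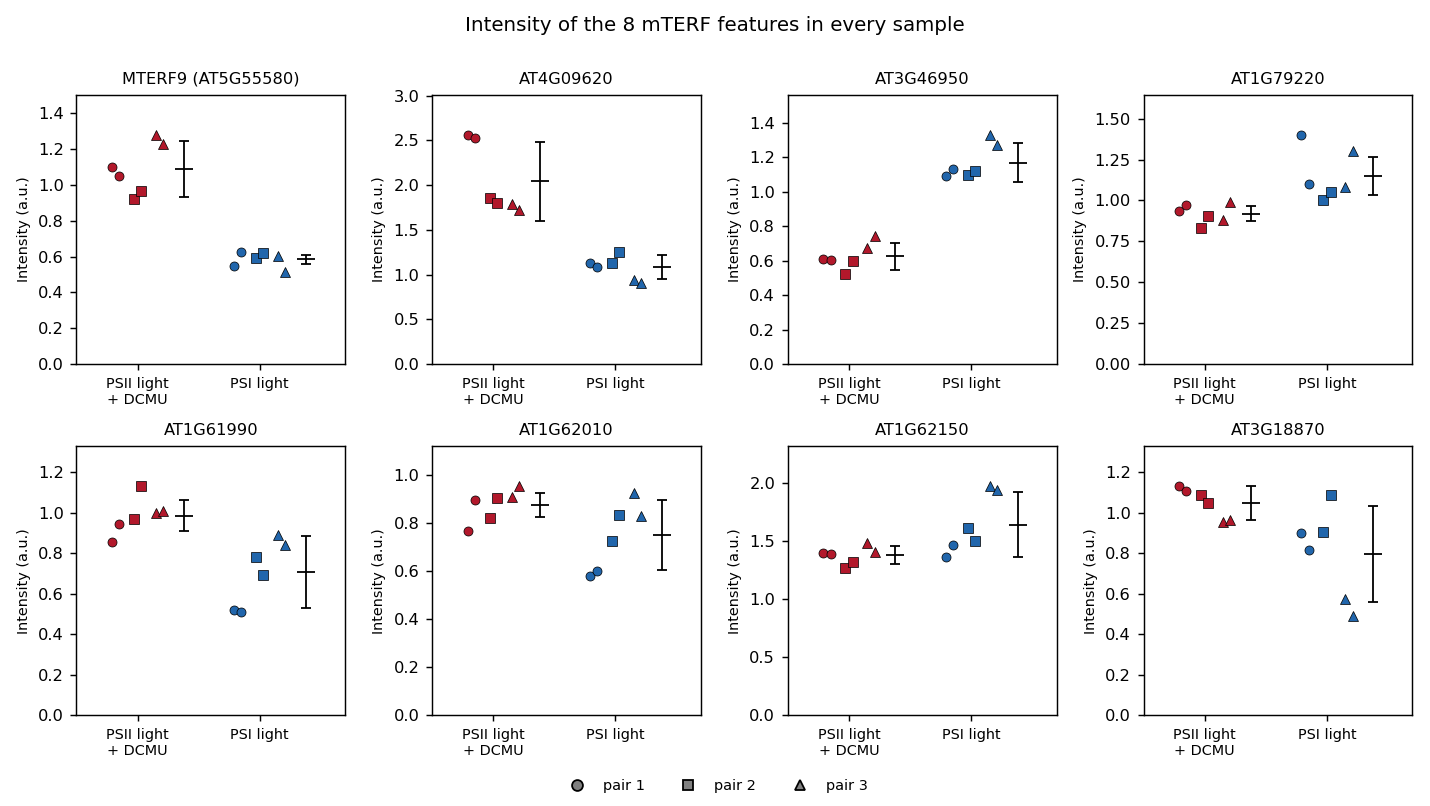
Deposited intensity (arbitrary units, linear axis from 0) of the 8 mTERF features in each of 6 samples under PSII light with DCMU (left, red) and 6 under PSI light (right, blue). Marker shape gives the pair number of a sample, and the bar gives mean ± SD of 3 replicates. The groups do not overlap for the 4 genes of the upper row and overlap for the 4 of the lower row. Over the array the 6 against 6 samples did not overlap in 48.7% of all features.

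MTERF9 encodes a chloroplast protein that is known to take part in ribosome assembly and chloroplast gene expression and to affect leaf development and stress responses. Its intensity under PSII light with DCMU was 1.08, 0.944 and 1.25 in the 3 replicates (lowest sample 0.923, median 1.08, highest 1.28), against 0.587, 0.606 and 0.558 under PSI light (lowest sample 0.512, median 0.598, highest 0.628). Each of the 6 samples under PSII light with DCMU was thus brighter than each of the 6 under PSI light. The means were 1.09 ± 0.155 and 0.584 ± 0.0239 (SD, n = 3 each), and the log2 change was 0.90 ± 0.116 (SE, n = 3, 95% interval 0.60 to 1.20, limma adjusted p = 0.004). Replicates differed more from each other under PSII light with DCMU, with a coefficient of variation of 14.2%, than under PSI light (4.09%), a comparison of spreads that was not tested. The call held in all 19 alternative analyses, with changes between 0.68 and 1.0. These values are of the feature paired with MTERF9 alone. Feature 4364, paired with MTERF9 and AT1G78930, went the other way (log2 change -0.75, limma adjusted p = 0.00562) and is described below.

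AT4G09620, the other member that rose, changed by nearly the same log2 amount as MTERF9. Its intensity was 2.54, 1.82 and 1.76 in the replicates under PSII light with DCMU (lowest sample 1.72, median 1.82, highest 2.56), against 1.11, 1.19 and 0.927 under PSI light (lowest sample 0.91, median 1.11, highest 1.25). The groups did not overlap, and both samples of pair 1 under PSII light with DCMU stood above all others. The means were 2.04 ± 0.437 and 1.08 ± 0.135 (SD, n = 3 each), with a log2 change of 0.91 ± 0.184 (SE, n = 3, 95% interval 0.44 to 1.39, limma adjusted p = 0.0145). Without PSII_DCMU replicate 1 the rise was 0.74, the smallest of the 6 analyses that left out a replicate, and its call held in all 19 alternatives.

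AT3G46950 moved the other way by nearly the same log2 amount. It had 0.606, 0.56 and 0.709 in the replicates under PSII light with DCMU (lowest sample 0.52, median 0.606, highest 0.746), against 1.11, 1.11 and 1.3 under PSI light (lowest sample 1.09, median 1.12, highest 1.33). Again the 6 samples of one group lay apart from the 6 of the other, with the highest sample under PSII light with DCMU still well under the lowest under PSI light. The means were 0.625 ± 0.0766 and 1.17 ± 0.112 (SD, n = 3 each), and the log2 change was -0.91 ± 0.119 (SE, n = 3, 95% interval -1.22 to -0.61, limma adjusted p = 0.00406). Only 5.87% of all features had a more negative change. The call held in 18 of 19 alternatives. The change was reduced to -0.46 with segments of feature numbers removed, and the call ended with each place removed (-0.26, limma adjusted p = 0.122), as described below. Feature 1484, paired with AT3G46950 and other mTERF loci, did not pass (log2 change 0.16, limma adjusted p = 0.177) and is also described below.

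AT1G79220 fell by the smallest amount among the members called. Its intensity was 0.954, 0.867 and 0.935 in the replicates under PSII light with DCMU (lowest sample 0.831, median 0.919, highest 0.991), against 1.25, 1.02 and 1.19 under PSI light (lowest sample 1.0, median 1.09, highest 1.4). The groups were separated by a narrow margin, 0.991 against 1.0. Its 2 samples of pair 1 under PSI light differed 1.27-fold, the widest gap within a pair for any member. The means were 0.919 ± 0.0458 and 1.15 ± 0.116 (SD, n = 3 each), and the log2 change was -0.32 ± 0.09 (SE, n = 3, 95% interval -0.55 to -0.09, limma adjusted p = 0.037). This call ended without any of the PSII_DCMU replicates 1, 2 or 3 and without PSI replicate 1 or 3 (adjusted p = 0.0808 to 0.111), with changes of -0.35 to -0.27, close to that with all replicates. It also ended in 6 other alternatives.

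Of the 4 members that did not pass, AT1G61990 came closest. It had 0.901, 1.05 and 1.0 in the replicates under PSII light with DCMU, against 0.514, 0.738 and 0.866 under PSI light, and the replicates, though not the samples, of the groups were separated. Its log2 change was 0.51 ± 0.211 (SE, n = 3, 95% interval -0.04 to 1.06, limma adjusted p = 0.104). PSI replicate 1 was far dimmer than the other PSI replicates, and without it the change was 0.30 with an adjusted p of 0.106.

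AT1G62010 showed the same low PSI replicate 1. Its intensity was 0.834, 0.866 and 0.932 under PSII light with DCMU, against 0.593, 0.782 and 0.879 under PSI light, and both the samples and the replicates overlapped. The log2 change was 0.24 ± 0.161 (SE, n = 3, 95% interval -0.18 to 0.66, limma adjusted p = 0.273). It was 0.08 without PSI replicate 1 and 0.36 without PSI replicate 3. An interval this wide leaves room for no change and for a rise of 1.58-fold.

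AT1G62150 had 1.4, 1.29 and 1.44 under PSII light with DCMU, against 1.42, 1.56 and 1.96 under PSI light, where replicate 3 stood highest. Its log2 change of -0.24 ± 0.135 (SE, n = 3, 95% interval -0.59 to 0.11, limma adjusted p = 0.199) came with overlapping groups, and it was -0.11 without PSI replicate 3. AT3G18870 had 1.12, 1.07 and 0.96 under PSII light with DCMU, against 0.858, 0.998 and 0.535 under PSI light, where replicate 3 stood lowest. Its change of 0.45 ± 0.254 (SE, n = 3, 95% interval -0.21 to 1.11, limma adjusted p = 0.204) had the widest interval of the 8 members, and it was 0.18 without PSI replicate 3.

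Replicates that share a pair number deviated together across the groups, so the change can also be read within each pair number. MTERF9 changed by 0.88, 0.64 and 1.17 on the log2 scale in pairs 1, 2 and 3, and AT4G09620 by 1.2, 0.62 and 0.92. AT3G46950 was the most even, with -0.87, -0.99 and -0.88, and AT1G79220 gave -0.38, -0.24 and -0.35. Among the members not called, AT1G61990 ranged from 0.21 to 0.81, AT1G62010 from 0.08 to 0.49, AT3G18870 from 0.10 to 0.85 and AT1G62150 from -0.44 to -0.02. All 8 members had the same sign in their 3 pairs, 5 positive and 3 negative, where 74.3% of all features had 1 sign in their 3 pairs. The 6 against 6 samples did not overlap in 4 of the 8 members, against 48.7% of all features, and the 3 against 3 replicates did not overlap in 5 of 8, against 60.9%.

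**Figure D2:**
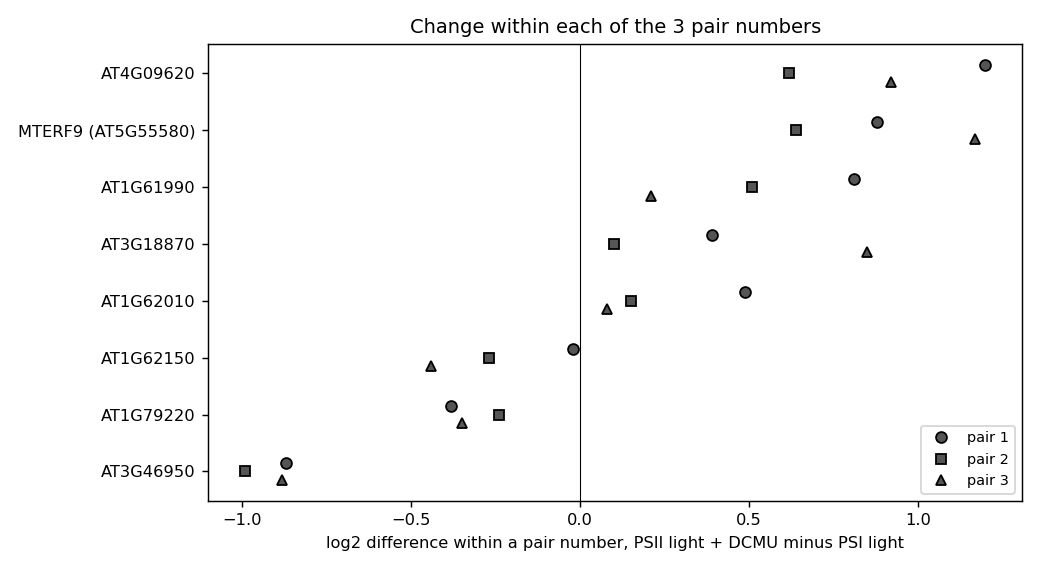
Log2 difference between PSII light with DCMU and PSI light within each of 3 pair numbers (x axis), for the 8 mTERF genes in order of their overall change (top to bottom). Every gene keeps its sign in the 3 pairs, and the points of AT3G46950 lie closest together relative to their size.

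Changes on this array also varied with feature number. Feature numbers were taken in runs of 288, each cut into 3 segments of 96 places. The labels do not give this run length, and no source used here says how feature numbers map to the array. Features at places 1 to 96 had a median log2 change of -0.31, those at places 97 to 192 had 0.42 and those at places 193 to 288 had 0.16. Of the members, AT3G46950, AT1G62150 and AT1G61990 stood in segment 1, AT1G62010 and AT3G18870 in segment 2, and MTERF9, AT4G09620 and AT1G79220 in segment 3. The rise of MTERF9 and AT4G09620 was thus well above the median of their segment, and AT1G79220 fell in a segment where the median was positive. AT3G46950 fell in the segment whose median was negative, and the 10 other features at its own place had a median change of -0.57.

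With the median of each segment removed from every replicate, MTERF9 stood at 0.79 ± 0.136 and AT4G09620 at 0.81 ± 0.181 (log2, SE, n = 3, limma adjusted p = 0.00231 and 0.00763). AT3G46950 was reduced to -0.46 ± 0.135 (adjusted p = 0.0227) and AT1G79220 stood at -0.43 ± 0.121 (adjusted p = 0.0189). AT1G61990 passed the threshold with 0.97 ± 0.198 (adjusted p = 0.00513), where 51.2% of all features passed. AT1G62010, AT1G62150 and AT3G18870 then stood at -0.25, 0.22 and -0.04, each with the sign turned and none past the threshold. When the mean of each single place was removed instead, AT3G46950 stood at -0.26 and AT1G79220 at -0.13, and both calls ended (limma adjusted p = 0.122 and 0.399). AT1G61990 then passed with 0.72 and AT1G62010 with 0.48 (1069 features higher and 606 lower over the array), while MTERF9 (0.77) and AT4G09620 (0.98) kept their calls. The mean of a place included the member itself, so part of a member's own change was removed with it. The 14 other features at the place of AT1G79220 had a median change of 0.09.

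**Figure D3:**
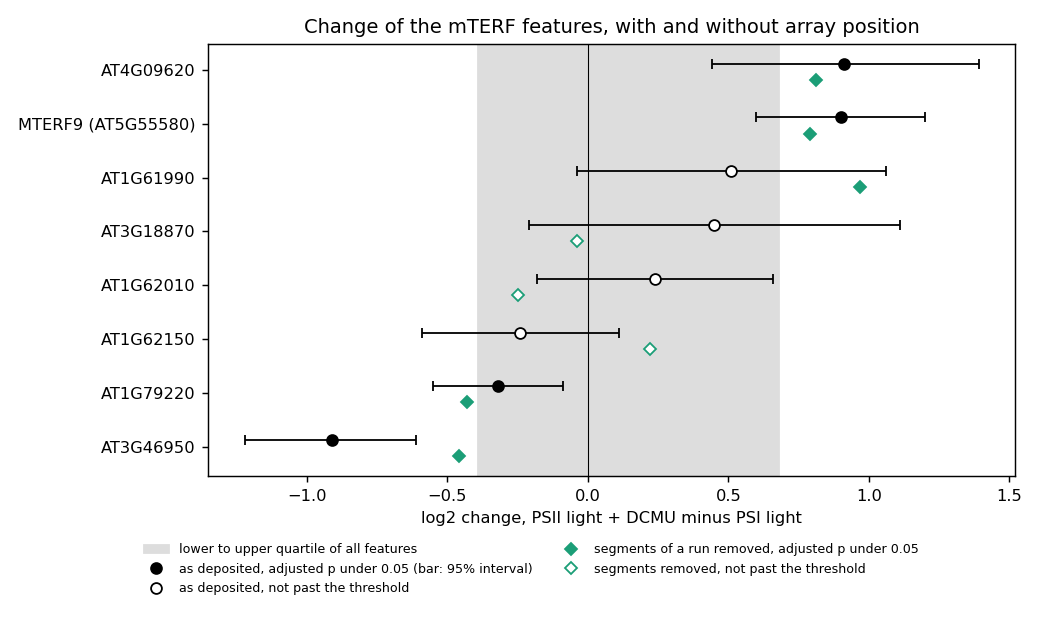
Log2 change between PSII light with DCMU and PSI light (x axis) of the 8 mTERF genes, as deposited (circles, with 95% interval) and with the medians of the 3 segments removed (diamonds), filled where the adjusted p was under 0.05. The grey band, from -0.39 to 0.68, holds the central changes of all 3439 features between their lower and upper quartile. MTERF9, AT4G09620 and AT3G46950 lie outside the band as deposited, and AT3G46950 moves most of the way towards it with segments removed. Array position in the title means place in a run of feature numbers.

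**Figure D4:**
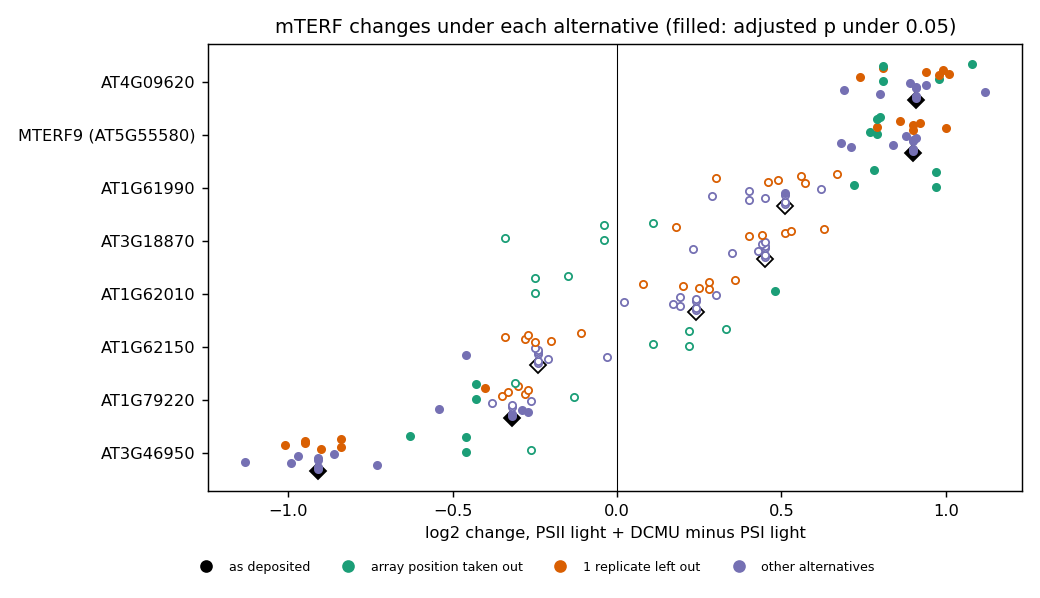
Log2 change between PSII light with DCMU and PSI light (x axis) of the 8 mTERF genes as deposited (black) and under 19 alternatives each, filled where the adjusted p was under 0.05. MTERF9 and AT4G09620 stay filled throughout, AT1G79220 is filled in some alternatives, and AT3G18870, AT1G62010 and AT1G62150 lie on both sides of 0. Array position in the legend means place in a run of feature numbers.

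For the 4 members called, the features most like them in profile were not other members. Only 7 of the 691 features compared with each were members, so little can be read from this about the family. Likeness was measured for these 4 only, as the root-mean-square difference of log2 intensities over the 12 samples, each gene centred on its mean. MTERF9 and AT4G09620 were each other's nearest member at 0.242, but 29 of the 691 other features with exactly 1 gene lay nearer to MTERF9, the nearest being AT2G28540 (0.0603, log2 change 0.90) and NdhS (AT4G23890), which encodes a subunit of the chloroplast NDH complex (0.12, log2 change 0.78). Nearest to AT4G09620 were AT2G42490 (0.135) and AT3G24190 (0.149), and 27 features lay nearer to it than MTERF9. AT3G46950 was most like AT4G14050 (0.0917, log2 change -1.03) and AT2G23070 (0.136). AT4G14050 stood in segment 1, as AT3G46950 did, and AT2G23070 in segment 3. The nearest member to AT3G46950 was AT1G79220 at 0.339, with 138 features nearer. AT1G79220 itself was most like AT2G26680 (0.0776) and AT2G38500 (0.115), and 72 features lay nearer to it than its nearest member, AT1G62150 (0.209). A typical feature lay 0.386 to 0.572 from these 4 members, and all likenesses here include the difference between the groups.

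Among the members, 3 are close neighbours on chromosome 1, where AT1G61990, AT1G62010 and AT1G62150 lie in a stretch of 19 protein-coding genes that holds 9 mTERF loci (reference gene table of TAIR10.1). AT1G61990 and AT1G62010 are separated by 1 gene, and AT1G62150 follows after 12 more. Their log2 changes were 0.51, 0.24 and -0.24, and none passed the test. AT1G79220 lies elsewhere on chromosome 1, AT3G46950 and AT3G18870 on chromosome 3, AT4G09620 on chromosome 4 and MTERF9 on chromosome 5. Cross-detection between related genes was not tested, since no probe sequence was at hand, so the values of these neighbouring family members are uncertain to that degree.

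Of 34 mTERF loci listed for the family, 8 had a feature of their own, and 10 more appeared only in features that the platform's table pairs with several genes. There were 6 such features, whose intensities cannot be given to any 1 gene. Feature 2165 is paired with 3 genes, AT1G21150, AT5G64950 and AT5G07900, of which 2 (AT5G64950 and AT5G07900) are among the 34 listed loci. It had 1.21, 1.19 and 1.23 in the replicates under PSII light with DCMU, against 0.423, 0.407 and 0.495 under PSI light, a rise of 2.76-fold (log2 1.46 ± 0.0833, SE, n = 3, limma adjusted p = 0.000644). Its change was 0.97 with segments removed and 0.62 with each place removed, and it passed in both. Feature 4021, paired with 3 genes, had 2.7, 3.18 and 2.8 under PSII light with DCMU, against 4.87, 4.31 and 5.32 under PSI light, a change of -0.74 ± 0.107 (adjusted p = 0.00551). This was -0.85 with segments removed (limma adjusted p = 0.00217) and -0.39 after quantile normalization, and it passed in both. It was -0.24 with each place removed, where the call ended (adjusted p = 0.135). The call held in 18 of 19 alternatives.

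Feature 4364 is paired with AT5G55580, the locus of MTERF9, and with AT1G78930. Its intensity was 0.671, 0.772 and 0.648 under PSII light with DCMU, against 1.25, 1.24 and 1.04 under PSI light, so it fell by 0.75 ± 0.11 on the log2 scale (SE, n = 3, limma adjusted p = 0.00562), opposite to the feature paired with MTERF9 alone. The 6 samples of each group did not overlap in either feature. Feature 4364 lay in segment 1 of a run. With segments removed its change was -0.30 (limma adjusted p = 0.133) and with each place removed -0.21 (adjusted p = 0.158). With segments and brightness removed it was -0.44 and passed (adjusted p = 0.0355). Its call held in 16 of 19 alternatives. The feature of MTERF9 alone stood at 0.79 with segments removed and kept its call in all 19. Which of the 2 features follows the MTERF9 transcript more closely was not tested.

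Feature 1484 is paired with 4 mTERF loci, AT1G61990 and AT3G46950 among them. It had 1.24, 1.09 and 1.17 under PSII light with DCMU, against 0.964, 1.13 and 1.06 under PSI light, and did not pass (0.16 ± 0.0827, SE, n = 3, limma adjusted p = 0.177). It passed at 0.62 with segments removed and at 0.70 with each place removed. Features 1496 and 1514 are paired with the same 2 loci of the chromosome 1 stretch. Feature 1496 stood at -0.27 ± 0.0696 (adjusted p = 0.0293) and feature 1514 at 0.23 ± 0.122 (adjusted p = 0.179), so features with the same pairing differed in sign as deposited. With segments removed they stood at 0.19 and 0.69 and with each place removed at 0.04 and 0.78, both positive, and feature 1514 then passed (adjusted p = 0.00476 and 0.00414). Feature 1496 no longer passed in the paired fit (-0.27, adjusted p = 0.0774), nor when a replicate other than PSI replicate 3 was left out (-0.31 to -0.22, adjusted p = 0.0564 to 0.0787), with changes of about the same size.

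**Figure D5:**
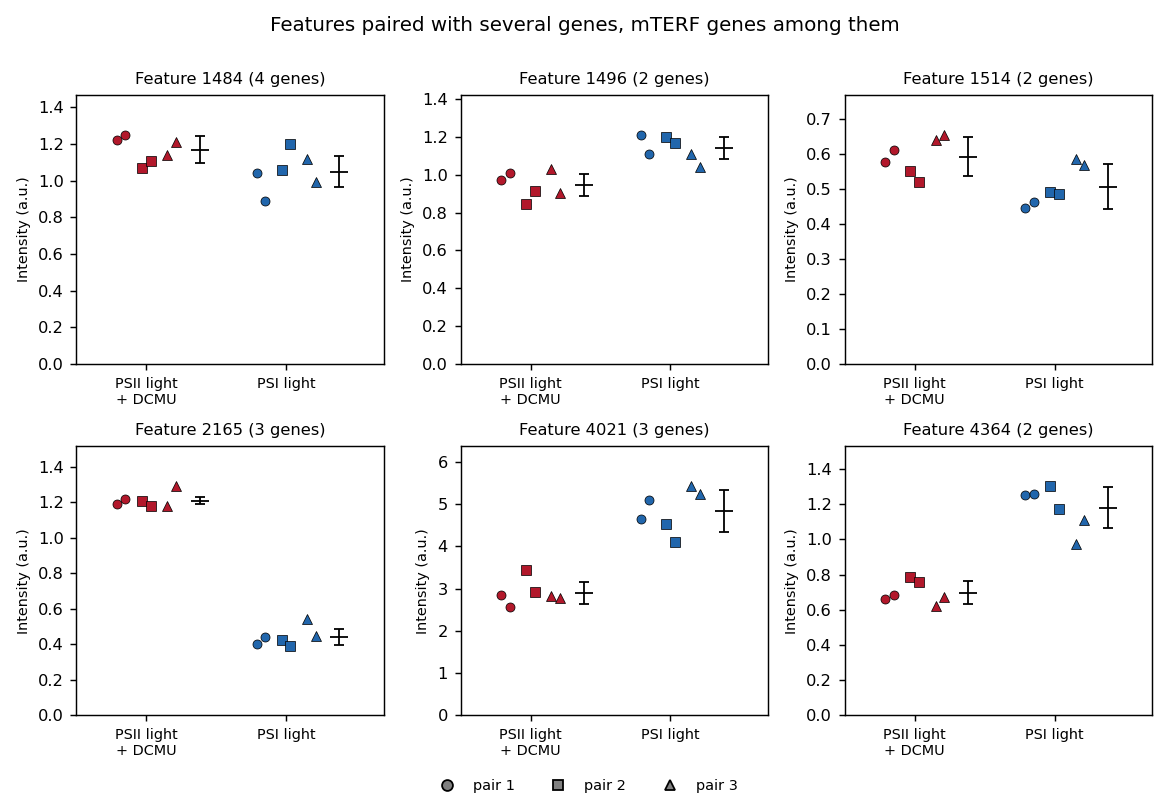
Deposited intensity (arbitrary units, linear axis from 0) in each of 6 samples under PSII light with DCMU (left, red) and 6 under PSI light (right, blue) for the 6 features paired with several genes, mTERF genes among them. Marker shape gives the pair number, and the bar gives mean ± SD of 3 replicates. Features 2165, 4021, 4364 and 1496 show no overlap of the groups, and features 1484 and 1514 overlap. Over the array the 6 against 6 samples did not overlap in 48.7% of all features.

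None of the other genes listed for organelle gene expression could be set beside the members. Of 22 loci for organelle transcription (sigma factors, phage-type RNA polymerases and proteins associated with the plastid-encoded polymerase) and 12 for organelle splicing and RNA turnover, 0 and 0 had a feature of their own. These lists are not analysed further here.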

How the data were processed

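The authors deposited 1 linear intensity per array feature and sample. Array type, background correction and scaling are not given in the sources used here. A floor of 0.0431, which is percentile 1 of the intensities above 0, replaced lower values (4.74% of all values), log2 was taken, and samples 1-2, 3-4 and 5-6 of a group were averaged. Partners' deviations from the group mean correlated at 0.379 to 0.656, those of other samples of a group at -0.511 to -0.184. The mean was of the same 6 samples, which by itself pushes correlations within a group below 0. The negative values are therefore no check on the pairing. The pair numbers also paired replicates across groups (0.286 to 0.356 for the same number, -0.329 to 0.00285 otherwise); the pairing comes from the data and the title numbers. PSII_DCMU minus PSI was fitted without a block on all 3439 features with limma 3.58.1 in R 4.3.3 (lmFit, eBayes, two-sided, Benjamini-Hochberg at 0.05), and figures were drawn with matplotlib 3.10.9. The fit was tested on simulated data. Intensities are means ± SD of 3 linear replicates. An exact permutation of 3 against 3 cannot give a p below 0.1.

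Features were named through the platform's table (692 with 1 gene, 870 with several, 1877 not listed) and the TAIR10.1 gene table by gene identifier. No coordinates are given, since no build is named with the values. The members and lists were chosen with earlier results of these data known. Named were the 8 members, the 2 most alike features for each of 4 of them and measured list members; the 6 features with several genes were added after their values were seen. Lists of pentatricopeptide repeat and organelle ribosomal protein genes were planned, but the tables used here hold no product names for them. Alternatives covered low values, scaling, pairing, place in a run of feature numbers and each replicate left out.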

Additional observations from a re-analysis of the deposited data

How the results depend on the processing

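The feature paired with MTERF9 alone and that of AT4G09620 kept their direction and call in all 19 alternatives. Feature 4364, which MTERF9 shares with AT1G78930, changed in the other direction and kept its call in 16 of 19. Across the array 1667 features were called, 1138 to 1685 with 1 replicate left out and 1656 with the pair number as a replicate block, which changed the call of no member. With each place taken out, 4 members were higher and 0 lower, in place of 2 and 2, while over all features 1069 were higher and 606 lower, in place of 909 and 758. Members called higher numbered 3 with the pair as a random block and with segments taken out, alone, with the replicate block or with brightness. Over all features 1027, 985, 1069 and 830 were higher in these fits, in that order, against 909 in the main fit. Members called lower numbered 3 with each sample centred, where 1130 of all features were lower, against 758 in the main fit. They numbered 1 with a filter on low features, the pair as a random block, odd-numbered or even-numbered samples alone, or segments and brightness taken out (an alternative chosen after the data were seen). Over the array these fits called 1761 (of 3286), 1892, 1541, 1559 and 1641 features in either direction, in that order. Of these, 1011, 1027, 836, 851 and 830 were higher and the rest lower. With segments and brightness taken out 811 features were lower, against 758 in the main fit. Members called lower numbered 1 to 2 with 1 replicate left out. Among all calls 54.5% were higher in the main analysis, 63.8% with each place taken out, 41.6% once samples were quantile normalized and 40.9% with each sample centred on its median, which moved the median change of all features by -0.22. Relative to that median MTERF9 stood at 0.86, AT4G09620 at 0.87, AT3G46950 at -0.95 and AT1G79220 at -0.36. The main analysis gives the same values, since centring shifts all features of a sample alike, so they are no check on the members. AT1G62150 passed under this centring (-0.46, adjusted p = 0.046, range over its alternatives 0.046 to 0.926).

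Signs turned as follows. With segments taken out, AT1G62010 stood at -0.25, AT1G62150 at 0.22, AT3G18870 at -0.04 and feature 1496 at 0.19, each the same with the replicate block added. With brightness taken out too, AT1G62010 stood at -0.15, AT1G62150 at 0.33 and feature 1496 at 0.14. With each place taken out, AT1G62150 stood at 0.11, AT3G18870 at -0.34 and feature 1496 at 0.04. Feature 1484 stood at -0.06 under centring and feature 1514 at -0.06 after quantile normalization. The cause of these turns was not tested.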

Other observations

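The replicate coefficients of variation of the 8 members lay between 4.98% and 21.4% under PSII light with DCMU and between 4.09% and 29.8% under PSI light. Of the 3208 features above the floor in every sample, 75.7% varied more between PSI replicates, with a median coefficient of variation of 8.99% under PSII light with DCMU and 16.3% under PSI light.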
